A study of Mus musculus with 4 samples.

Results

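The genes described here are 10 members of the mitochondrial death pathway, *Mcl1*, *Bcl2*, *Bcl2l1*, *Pmaip1*, *Bbc3*, *Bcl2l11*, *Bid*, *Bax*, *Bak1* and *Trp53*. They were taken by symbol from the 32285 genes counted in single cell RNA-sequencing of muscle stem cells (MuSCs), and all 10 were found. Each of 4 samples pooled hindlimb tdTomato+ cells that were sorted from 2 littermate mice at 14 days post-tamoxifen (14 DPT). The 2 control samples came from Pax7CreERT2/+;Rosa26-tdTomato mice without floxed α-catenin alleles, and the 2 α-cdKO samples from mice that also carried floxed *Ctnna1* and *Ctnna3*. All mice were C57BL/6J animals of 3 to 4 months, and all received tamoxifen. CreERT2 was driven from *Pax7*. By this design recombination and the reporter were meant to be limited to cells that expressed *Pax7* at treatment and to their progeny. The sorted cells also held endothelial-like and immune-like ones (below). Because α-cdKO MuSCs are lost over time, the question was whether the cells still present at 14 DPT differed in the transcripts that set how close a cell is to apoptosis.

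The BCL-2 family decides whether the outer mitochondrial membrane is opened. BAX and BAK1 form the pores, MCL1, BCL2 and BCL-XL (encoded by *Bcl2l1*) hold them in check, and the BH3-only proteins NOXA (*Pmaip1*), PUMA (*Bbc3*), BIM (*Bcl2l11*) and BID act upstream by binding the guardians or the pore formers. p53, encoded by *Trp53*, is a transcription factor that is held low by MDM2 and that can raise *Bbc3*, *Pmaip1* and *Bax* after DNA damage. Much of this pathway is controlled at the level of protein stability and binding, which transcript counts do not read.

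Of 31254 barcodes, 28790 passed the limits of 1000 unique molecular identifiers (UMIs), 400 genes and less than 15% UMIs from mitochondrial genes. Sequencing gave the controls 48515992 (replicate 1) and 46099310 UMIs (replicate 2), and α-cdKO 73261352 (replicate 1) and 74921651 (replicate 2). Between 9 and 26 barcode sequences were shared by any pair of libraries, at most 0.383% of the smaller one. Clusters named from marker genes gave 27124 myogenic cells, of which 19050 were activated-like, 6143 quiescent-like, 1274 differentiated-like and 657 cycling-like. The cell type was thus read from marker genes, although none of these was among the 10 leading genes of the activated-like cluster. A further 1351 mature-muscle-like, 180 endothelial-like and 135 immune-like cells were set apart. The myogenic share was 83.5% in control replicate 2 and 96.3%, 96.0% and 97.7% in control replicate 1 and α-cdKO replicates 1 and 2. None of the 10 genes was allowed to shape the clusters.

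A further difference between the libraries bears on every genotype comparison. In α-cdKO replicate 1, 52.6% of the myogenic cells had a UMI of *Xist*, which is expressed from the inactive X chromosome of female cells, and none from 4 Y-linked genes. That share was at most 0.0189% in each of the other 3 samples, in which 80.0% to 82.0% of the cells had a Y-linked UMI and no *Xist* UMI. In α-cdKO replicate 1 the corresponding share was 30.2%. Results are therefore given with and without that library or the *Xist*-bearing cells where these decide a value. The deletion itself could not be read from these libraries. *Ctnna1* stood at 91.1 and 74.9 CPM (counts of a gene as parts of 1e6 UMIs of the sample) in control and at 79.3 and 75.6 in α-cdKO, and *Ctnna3* at 1, 2, 2 and 7 UMIs. Counts are taken near the 3′ end of transcripts, which need not lie in the deleted part.

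*Bax* was higher in quiescent-like than in activated-like cells and *Mcl1* lower (below), so their promoters are shown, as RefSeq gives them for GRCm38.p6, from 250 bases before to 50 bases after the RefSeq start. *Bax* (ENSMUSG00000003873) lies on the minus strand of chromosome 7 from 45461697 to 45466898, and the window is chr7:45466849-45467148. *Mcl1* (ENSMUSG00000038612) lies on the plus strand of chromosome 3 from 95658788 to 95663176, and the window is chr3:95658471-95658770. These gene spans are those of the GENCODE annotation, and the RefSeq start used for the window is the same for *Bax* and 67 bases further upstream, at 95658721, for *Mcl1*. Capitals mark a p53 half-site and the letters CACGTG in *Bax*, and the letters GGGCGG and TGACG in *Mcl1*, on either strand. The *Bax* window also holds GGGCGG, which is not marked there.
Bax: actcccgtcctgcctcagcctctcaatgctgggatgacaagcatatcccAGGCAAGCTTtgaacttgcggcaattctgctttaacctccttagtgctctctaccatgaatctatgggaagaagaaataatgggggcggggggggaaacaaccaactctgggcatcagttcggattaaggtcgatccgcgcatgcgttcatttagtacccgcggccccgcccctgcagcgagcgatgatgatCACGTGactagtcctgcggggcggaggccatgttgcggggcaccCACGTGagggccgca
Mcl1: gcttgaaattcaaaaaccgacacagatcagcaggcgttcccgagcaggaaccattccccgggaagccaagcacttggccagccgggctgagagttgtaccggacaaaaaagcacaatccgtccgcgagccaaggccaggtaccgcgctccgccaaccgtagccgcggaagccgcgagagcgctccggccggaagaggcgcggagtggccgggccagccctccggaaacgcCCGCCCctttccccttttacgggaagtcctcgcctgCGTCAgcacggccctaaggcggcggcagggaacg
The p53 half-site in *Bax* began 201 bases before the RefSeq start, and the matches did not overlap. A p53 half-site was found in 8.36% of the 32851 RefSeq promoter windows of this length, CACGTG in 7.15%, GGGCGG in 35.7% and TGACG in 20.8%. Among the 9 members with a window printed or searched here, a half-site was found in *Bax* and *Trp53*, and CACGTG in *Bax*, *Bbc3* and *Trp53*. GGGCGG was found in 6 members (*Bax*, *Bbc3*, *Bcl2*, *Bcl2l11*, *Bid* and *Mcl1*) and TGACG in *Bbc3*, *Bcl2* and *Mcl1*. A match of letters describes the window and is not a site of binding.

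Among the guardians, *Mcl1*, whose protein is short-lived, supplied nearly all transcripts. One UMI counts 1 captured molecule at the 3′ end, so levels in CPM are not scaled by gene length. Over the myogenic cells *Mcl1* had 535 and 462 CPM in control and 439 and 477 CPM in α-cdKO. In activated-like cells it stood at 575 and 507 CPM in control and 470 and 518 CPM in α-cdKO, and in quiescent-like cells at 377, 360, 368 and 369 CPM in the same order. Activated-like cells were thus higher in 4 of 4 samples and the states did not overlap (log2 ratio 0.48 ± 0.10, SD, n = 4, with 5 CPM added to each level). Of 5919 genes of at least 10 CPM, 36.3% were higher in activated-like cells without overlap and 26.8% were lower, so that a lack of overlap between these states is common. Of the 7 members of at least 10 CPM, 1 was higher and 2 were lower by this measure. Differentiated-like and cycling-like cells held 436 ± 43.3 and 345 ± 10.9 *Mcl1* CPM (n = 4). States were defined from the same cells, so no test was made between them.

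*Mcl1* was not even among quiescent-like cells. A separate, finer clustering of the myogenic cells gave a pair of quiescent-like clusters, of 2915 and 2815 cells. In the smaller cluster, led by *Matn4* and *Neu1*, *Mcl1* was 187.7 CPM (169.5 to 205.9 over the 4 samples), the lowest of the 7 fine clusters. It was 469 ± 16.9 CPM (SD, n = 4) in the other, led by *Hspa1a* and *Fos*, and no sample of either overlapped the other cluster. *Jun*, an early gene of cell isolation, was 2647 ± 749 CPM in the *Matn4* cluster and 2567 ± 857 CPM in the other. *Fos*, another such gene, was 2078 ± 555 and 3582 ± 964 CPM, and the chaperone gene *Hspe1* 1377 ± 499 and 6295 ± 1802 CPM. The median depth was 5267 UMIs in the *Matn4* cluster and 7645 in the other. *Pmaip1* (2.13 ± 1.26 and 8.71 ± 2.60 CPM) and *Bbc3* (9.53 ± 2.69 and 20.02 ± 4.504 CPM) were also lower in the *Matn4* cluster, and *Bax* (66.6 ± 8.46 and 58.3 ± 13.6 CPM) overlapped. *Bak1* was higher in the *Matn4* cluster without overlap (7.66 ± 1.94 and 3.34 ± 0.331 CPM). The part of the isolation response or of depth in these levels was not tested.

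*Bcl2*, a guardian of long-lived cells, was highest in quiescent-like cells (41.9 ± 4.13 CPM) and activated-like cells (37.9 ± 8.33), which overlapped. Cycling-like cells held 25.9 ± 3.45 CPM and differentiated-like cells 18.2 ± 6.40, and neither reached the lowest activated-like sample. *Bcl2l1* was low throughout, from 5.24 ± 0.606 CPM in activated-like to 12.15 ± 4.496 in cycling-like cells. In cycling-like cells its 4 values were 17.8 and 13.7 CPM in control and 9.25 and 7.88 CPM in α-cdKO, which rest on 10, 20, 58 and 17 UMIs.

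**Figure D1:**
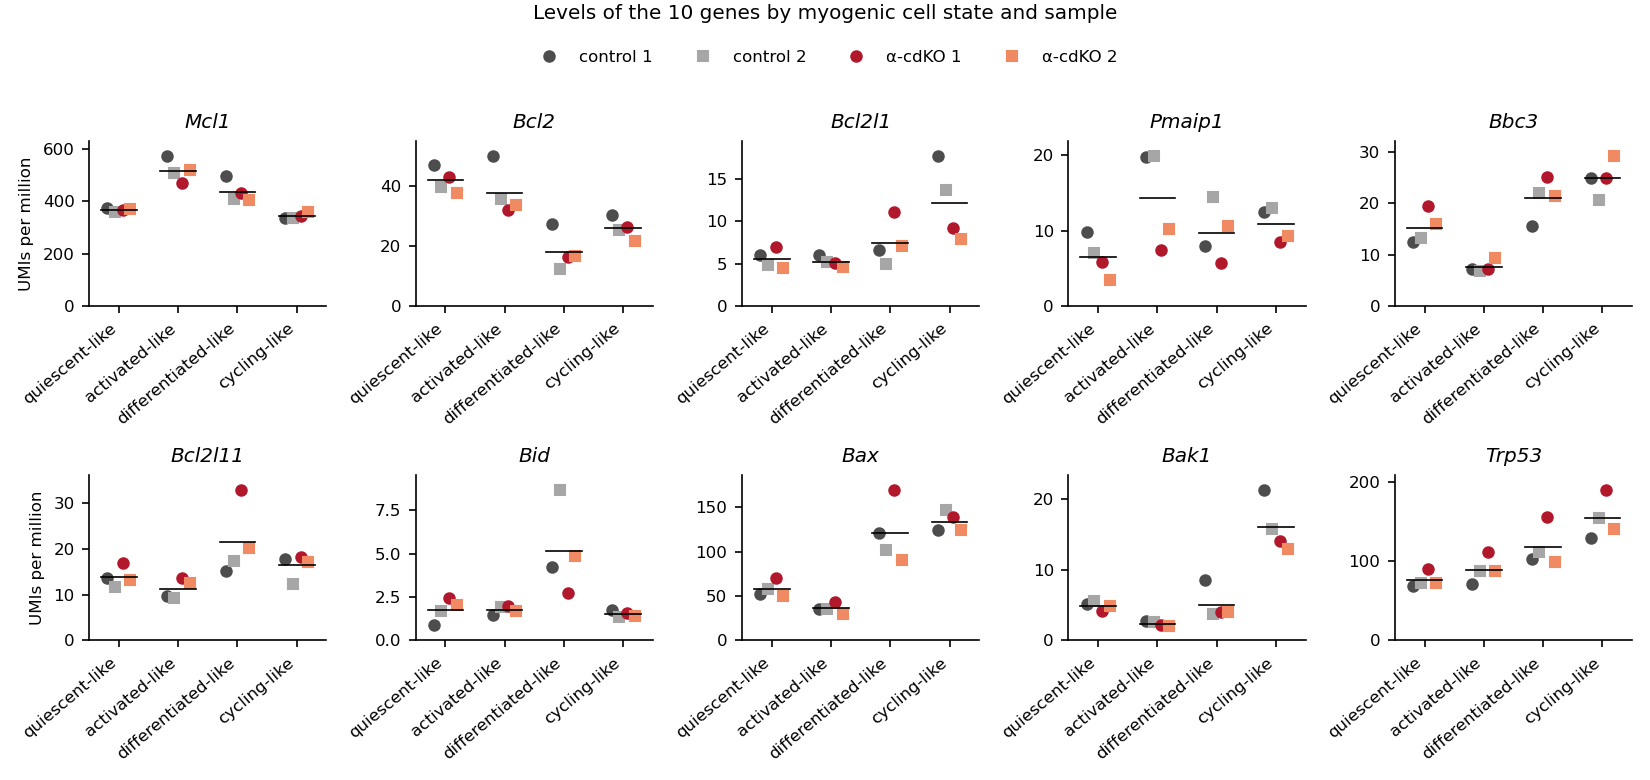
Level of each gene in CPM (y axis, linear, from 0) in quiescent-, activated-, differentiated- and cycling-like cells. Points are the 4 samples and bars are their mean. Mcl1 sits highest in activated-like cells, and Bax and Bbc3 lowest there.

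The pore formers were lowest in activated-like cells. *Bax* was 35.7 and 34.9 CPM in activated-like cells of the controls and 43.7 and 30.1 CPM in those of α-cdKO. In quiescent-like cells the values were 52.7, 57.5, 70.5 and 50.1 CPM, so that every quiescent-like sample was above every activated-like one (log2 ratio of activated to quiescent −0.61 ± 0.07, n = 4). Differentiated-like cells held 121 ± 34.8 CPM and cycling-like cells 134 ± 11.3 CPM, which overlapped each other, and differentiated-like cells did not overlap quiescent-like cells. *Bak1* was present at 2.37 ± 0.332 CPM in activated-like, 4.91 ± 0.584 in quiescent-like, 5.06 ± 2.29 in differentiated-like and 16.03 ± 3.71 CPM in cycling-like cells, and only the last stood above all other states in every sample.

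Of the BH3-only genes, *Bbc3* followed *Bax*. It was 7.24 and 6.78 CPM in activated-like control cells and 7.19 and 9.35 CPM in activated-like α-cdKO cells, against 12.4, 13.3, 19.5 and 15.9 CPM in quiescent-like cells. The states did not overlap (log2 ratio −0.67 ± 0.23, n = 4). Differentiated-like (20.9 ± 3.96 CPM) and cycling-like cells (24.9 ± 3.52 CPM) were above quiescent-like cells on average, and differentiated-like cells were higher in 4 of 4 samples, with overlap between samples. *Bcl2l11* was highest in differentiated-like cells (21.4 ± 7.95 CPM) and 16.4 ± 2.71, 13.8 ± 2.22 and 11.2 ± 2.10 CPM in cycling-, quiescent- and activated-like cells, neighbours in this order that overlapped. *Bid*, which is cleaved by caspase-8 to reach mitochondria, was at 5.13 ± 2.52 CPM in differentiated-like cells and between 1.53 and 1.76 CPM elsewhere. *Pmaip1* ran the other way from *Bbc3*, with 14.3 ± 6.47 CPM in activated-like and 6.53 ± 2.63 CPM in quiescent-like cells, higher in activated-like cells of 4 of 4 samples (log2 ratio 0.71 ± 0.37), with overlap between samples. *Trp53* was 154 ± 26.2 CPM in cycling-like, 117 ± 25.8 in differentiated-like, 89.4 ± 16.6 in activated-like and 76.1 ± 9.29 CPM in quiescent-like cells. That order held in each sample, although neighbouring states overlapped.

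Summed by role, the 3 guardians had 16.1 ± 1.09 UMIs per UMI of the 4 BH3-only genes in activated-like cells. The ratio was 11.3 ± 1.28 in quiescent-like, 8.43 ± 2.67 in differentiated-like and 7.18 ± 0.534 in cycling-like cells (SD, n = 4). It ranged from 14.5 to 16.8 in activated-like samples and from 9.35 to 12.1 in quiescent-like samples, without overlap. Over all myogenic cells the controls had ratios of 15.4 and 12.98 and α-cdKO ratios of 12.5 and 14.3, which overlapped. *Mcl1* is most of the upper sum, so the ratio mainly sets *Mcl1* against the BH3-only genes.

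**Figure D2:**
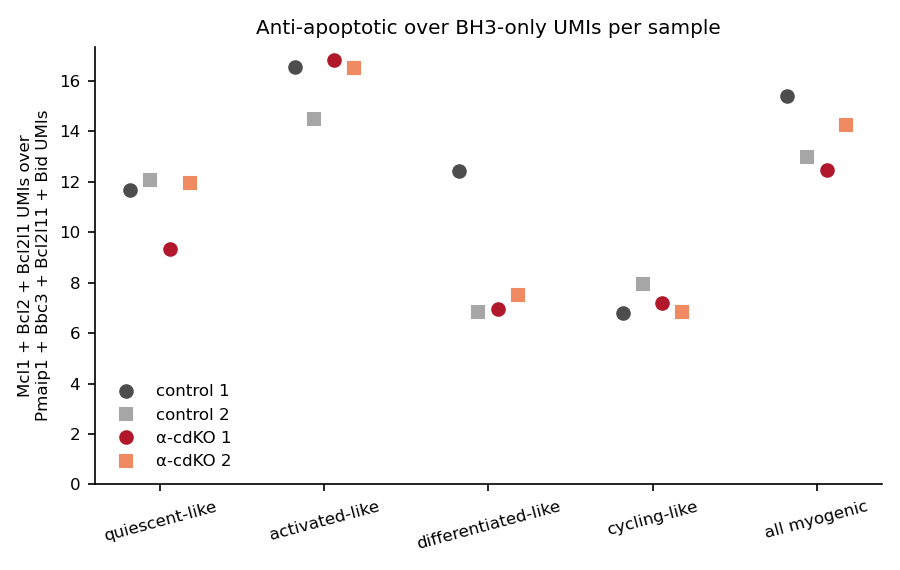
UMIs of Mcl1, Bcl2 and Bcl2l1 divided by UMIs of Pmaip1, Bbc3, Bcl2l11 and Bid (y axis, linear, from 0) by cell state, with 1 point per sample. Activated-like samples lie between 14.5 and 16.8, above all quiescent-like samples, and the genotypes overlap over all myogenic cells.

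Over samples and states (16 points, which share libraries and depth), the pattern of *Mcl1* was most like those of *Ets2* (Pearson r = 0.963), *Mir22hg* (0.957) and *Huwe1* (0.951), with r computed on log2(CPM + 5). *Bcl2* was most like *Ddit4* (0.953) and *Anxa3* (0.944). *Bax* was most like *Mycbp* (0.962), *Akr1a1* (0.957) and *Wipi1* (0.957), and *Bbc3* most like *Fundc2* (0.963), *Wbp1* (0.961) and *Commd3* (0.960). For *Trp53* these were *Mindy3* (0.965), *Itpripl2* (0.954) and *Nudt21* (0.933), and for *Bcl2l11* *Gm17251* (0.887), *Adm* (0.878) and *Gse1* (0.863). The closest genes to *Pmaip1* were *Cdc37l1* (0.814), *Nol10* (0.796) and *Taf15* (0.794). *Bak1*, *Bcl2l1* and *Bid* were under 10 CPM on average and were not matched.

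In all myogenic, quiescent-like and activated-like cells the largest genotype difference among the 10 genes was that of *Pmaip1*, toward a lower level in α-cdKO. In differentiated-like cells the log2 fold changes of *Bid* (−0.77, SE 0.50), *Bcl2l11* (0.75, SE 0.30) and *Bcl2l1* (0.71, SE 0.39) were larger than that of *Pmaip1* (−0.47, SE 0.43). In cycling-like cells that of *Bcl2l1* was larger (−0.72, SE 0.35, against −0.48, SE 0.35). *Pmaip1* (ENSMUSG00000024521, chromosome 18 from 66458533 to 66465565) had 17.4 and 16.4 CPM in the myogenic cells of control replicates 1 and 2 and 7.06 and 8.95 CPM in those of α-cdKO replicates 1 and 2. Both control samples were above both α-cdKO samples. The log2 fold change of α-cdKO over control was −1.08 (SE 0.18, adjusted p = 0.205 in edgeR's quasi-likelihood test), which did not pass the correction over 14637 genes. In activated-like cells the values were 19.8 and 19.9 against 7.38 and 10.3 CPM (log2 fold change −1.14, SE 0.19, adjusted p = 0.0617 in edgeR). In quiescent-like cells they were 9.79 and 7.01 against 5.86 and 3.45 CPM (−0.83, SE 0.29, adjusted p = 0.498). With DESeq2 *Pmaip1* passed in all myogenic and in activated-like cells and not in quiescent-like cells. In differentiated-like cells the genotypes overlapped, with 8.01 and 14.5 CPM in control and 5.64 and 10.5 CPM in α-cdKO on 17 to 52 UMIs per sample. Cycling-like cells had 12.4 and 13.04 against 8.45 and 9.27 CPM, on as few as 7 UMIs. Over 15 settings the log2 fold change lay between −1.30 and −0.89 in all myogenic, −1.38 and −0.93 in activated-like and −1.22 and −0.49 in quiescent-like cells. These were not all settings of processing. They included the main fit, fits that left out 1 replicate, the replicate number as a block and a crossed pairing chosen after seeing the data. Both ends of each range came from fits that left out 1 replicate.

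None of the 10 genes passed an adjusted p of 0.05 in edgeR, whether in all myogenic cells or in the quiescent-like or the activated-like cells alone. The background was 26 of 14637 genes (0.178%), 22 of 12097 (0.182%) and 41 of 13300 (0.308%) in the same order. At an unadjusted p under 0.05 there were 3, 2 and 2 members, beside 7.05%, 8.23% and 7.22% of all genes tested. DESeq2 called 1, 0 and 1 of the members, which was *Pmaip1*, and 118, 45 and 100 genes in all. The fit in differentiated-like cells called 1 of 9699 genes (0.0103%) and that in cycling-like cells 5 of 8948 (0.0559%), none of them a member. In these 2 states 1 and 0 members had an unadjusted p under 0.05 in edgeR, beside 3.25% and 8.25% of all genes tested. The 1 member was *Bcl2l11*, with 15.1 and 17.3 CPM in control and 32.9 and 20.3 CPM in α-cdKO differentiated-like cells. No DESeq2 fit was run in differentiated-like or cycling-like cells. In all myogenic cells both α-cdKO samples were above both controls for 2 of the 10 genes and below for 2, while 18.5% and 19.8% of all genes tested did so. In quiescent-like cells 2 were above and 2 below (17% and 23.2% of all genes), and in activated-like cells 1 and 4 (16% and 21.1%). The median log2 fold change over the members was 0.02 in all myogenic, 0.12 in quiescent-like and 0.001 in activated-like cells, and over all genes tested it was −0.0072, −0.0077 and −0.0027.

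*Bcl2l11* (chromosome 2 from 128126038 to 128162547) had 10.7 and 10.4 CPM in control and 16.5 and 13.2 CPM in α-cdKO myogenic cells, without overlap (log2 fold change 0.48, SE 0.15, adjusted p = 0.630 in edgeR). *Bbc3* (chromosome 7 from 16308393 to 16318205) had 8.72 and 9.65 against 12.6 and 11.99 CPM, also without overlap (0.41, SE 0.14, adjusted p = 0.658). Differentiated-like cells were 2.71% and 3.40% of control and 6.85% and 4.199% of α-cdKO myogenic cells, and cycling-like cells 0.568% and 1.95% against 4.41% and 1.58%. Without these states, in which *Bbc3* was highest, its log2 fold change was 0.33 and that of *Bcl2l11* 0.44. In activated-like cells *Bbc3* overlapped (7.24 and 6.78 against 7.19 and 9.35 CPM), and *Bcl2l11* did not (9.64 and 9.30 against 13.6 and 12.4 CPM). In quiescent-like cells *Bbc3* did not overlap (12.4 and 13.3 against 19.5 and 15.9 CPM), and *Bcl2l11* did (13.7 and 11.6 against 16.9 and 13.1 CPM). *Bid* overlapped, with 1.48 and 2.24 against 2.10 and 1.96 CPM.

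In all myogenic cells the guardians and pore formers differed less than *Pmaip1*, *Bcl2l11* and *Bbc3*, although *Bcl2* came close to *Bbc3*. *Mcl1* had a log2 fold change of −0.13 (SE 0.14) in all myogenic cells, and 0.04 (SE 0.12) in quiescent-like cells. *Bcl2* had 48.3 and 34.9 CPM in control and 31.6 and 32.9 CPM in α-cdKO (−0.38, SE 0.18, adjusted p = 0.715), and the difference was −0.11 without control replicate 1. *Bax* had 43.6 and 48.0 against 69.7 and 40.8 CPM, so that the α-cdKO samples lay on either side of the controls (0.25, SE 0.23). *Trp53* had 72.8 and 88.2 against 120 and 86.9 CPM (0.35, SE 0.17, adjusted p = 0.715), and α-cdKO replicate 2 lay between the controls. Without α-cdKO replicate 1 the difference was 0.14. *Bak1* (−0.15, SE 0.19), *Bcl2l1* (−0.07, SE 0.19) and *Bid* (0.12, SE 0.26) had differences smaller than their standard errors in all myogenic cells. In activated-like cells *Bcl2* was lower in α-cdKO without overlap (50.1 and 35.7 against 32.0 and 33.5 CPM). So were *Bcl2l1* (6.04 and 5.26 against 5.06 and 4.59 CPM) and *Bak1* (2.73 and 2.56 against 2.17 and 2.02 CPM), beside 21.1% of all genes. *Mcl1* and *Bax* overlapped there.

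**Figure D3:**
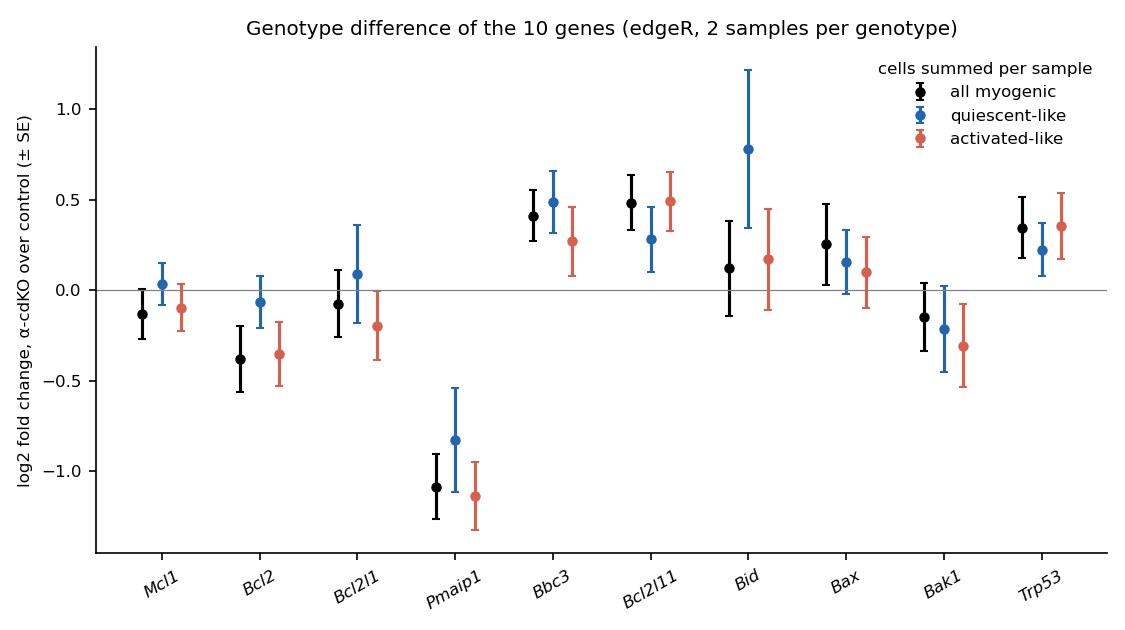
log2 fold change of α-cdKO over control (y axis) with its standard error for each gene, from UMIs summed per sample (2 samples per genotype), for myogenic cells together and for the quiescent-like and the activated-like ones. Pmaip1 lies at −1.08, −0.83 and −1.14, Bbc3 and Bcl2l11 lie above 0 in all 3 fits, and none of the 10 passed the adjusted threshold in edgeR (DESeq2 called Pmaip1 in all myogenic and activated-like cells).

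Whether these differences themselves differed between quiescent-like and activated-like cells was tested by an interaction term. No member passed (adjusted p = 1 for each in edgeR, with 2 of 13683 genes called), and the term for *Pmaip1* was −0.32 (SE 0.33).

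In α-cdKO replicate 1, *Bax*, *Bbc3*, *Bcl2l11* and *Trp53* were higher in the *Xist*-bearing cells. Cells with a Y-linked UMI and no *Xist* UMI (2839 cells) were set against cells with the reverse (4946 cells), and 390 cells with both and 1223 with neither were left out. *Bax* was 38.3 CPM (95% Poisson interval 35.5 to 41.3) in the former and 87.8 CPM (84.9 to 90.7) in the latter. *Bbc3* was 7.48 CPM (6.28 to 8.84) and 15.8 CPM (14.6 to 17.1), *Bcl2l11* 12.7 (11.1 to 14.4) and 18.1 (16.8 to 19.4), and *Trp53* 97.5 (92.98 to 102) and 133 (130 to 137). The intervals cover counting error only, and 1 library gives no test. The *Xist*-bearing cells were 10.9% differentiated-like and 6.47% cycling-like, and the others 1.62% and 1.20%, and these are the states with the highest *Bax*, *Bbc3* and *Trp53*. Within activated-like cells alone the same values were 33.2 and 50.2 CPM for *Bax*, 6.11 and 8.31 for *Bbc3*, 10.8 and 13.8 for *Bcl2l11* and 96.8 and 123 for *Trp53*. Both sets of cells carry the label α-cdKO, and within this library sex and animal cannot be told apart.

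*Pmaip1* differed from those genes in this respect. It was 8.57 CPM (7.28 to 10.02) in the Y-linked cells and 6.37 CPM (5.61 to 7.20) in the *Xist*-bearing cells of α-cdKO replicate 1. The Y-linked cells of the other samples had 18.4 and 17.1 CPM in control and 9.54 CPM in α-cdKO replicate 2. When all 4 samples were restricted to Y-linked cells, the log2 fold change was −0.92 for *Pmaip1*, 0.34 for *Bcl2l11*, 0.15 for *Bbc3*, 0.23 for *Trp53* and −0.15 for *Bax*, and none passed the adjusted threshold in edgeR.

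**Figure D4:**
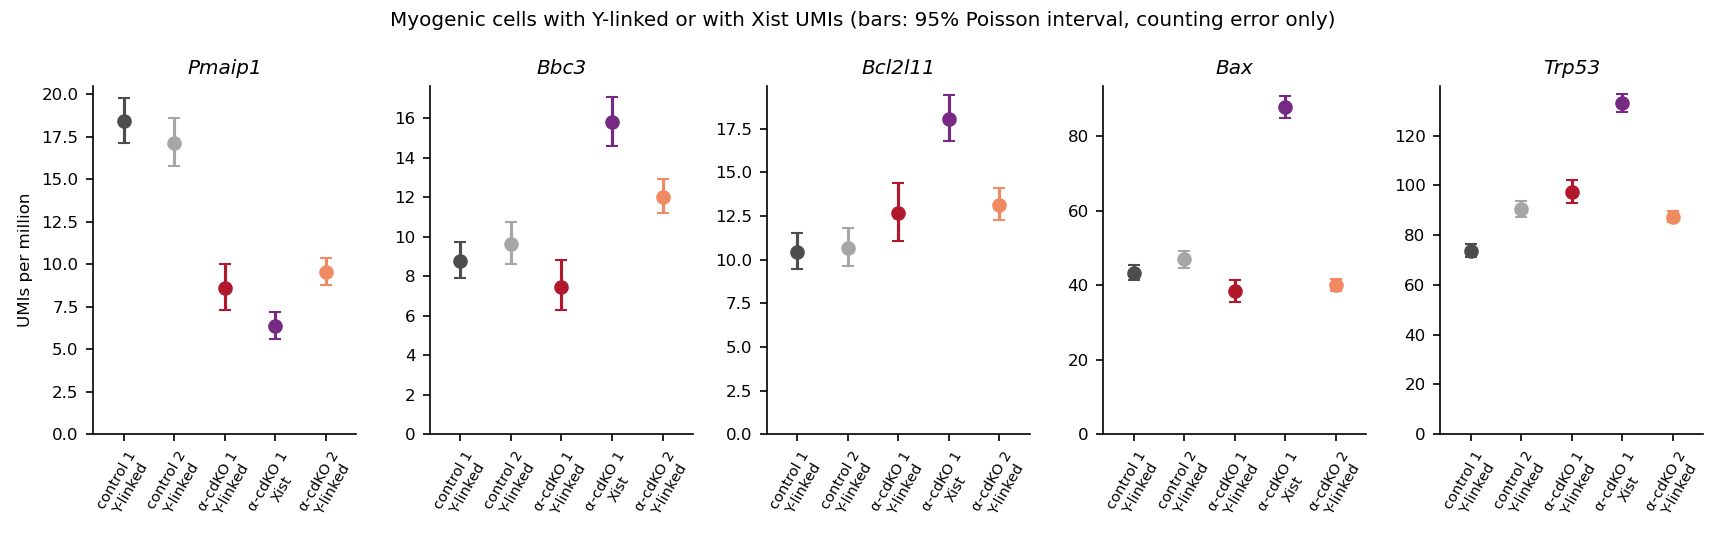
Level of 5 genes in CPM (y axis, linear, from 0) in myogenic cells that had a Y-linked UMI and no Xist UMI, for each of the 4 samples, and in cells of α-cdKO replicate 1 that had the reverse. Bars are 95% Poisson intervals (counting error only). Bax is 87.8 in the Xist-bearing cells and between 38.3 and 46.9 in the other sets, and Pmaip1 is at most 9.54 in every α-cdKO set.

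Genes around the 10 were read from 8 further lists. In edgeR no gene of these lists passed in all myogenic cells (0 of 102 genes, 7 at an unadjusted p under 0.05), in quiescent-like (0 of 95, with 12) or in activated-like cells (0 of 98, with 11), and DESeq2 called none of them either. Over all genes tested the shares at an unadjusted p under 0.05 were 7.05%, 8.23% and 7.22%. The counts without overlap that follow stand beside 18.5% of all genes above and 19.8% below. Of 29 p53 targets tested in all myogenic cells, 5 were above both controls in both α-cdKO samples and 4 were below, with a median log2 fold change of 0.17. *Eda2r*, a receptor of the TNF family, had 10.01 and 11.04 CPM in control and 24.8 and 11.2 CPM in α-cdKO (0.75, SE 0.33). *Trp53inp1*, a stress-induced cofactor of p53, had a log2 fold change of 0.73 (SE 0.29) and *Phlda3*, an inhibitor of AKT, of 0.69 (SE 0.37). α-cdKO replicate 1 was the highest sample for all 3, and without it the log2 fold changes were 0.11, 0.22 and −0.04. Of the 15 p53 regulators tested, 3 were above and 1 below, led by *Hipk2* (0.22, SE 0.14), *Rchy1* (0.19, SE 0.15) and *Ppm1d* (0.13, SE 0.13). The median was −0.01, and without α-cdKO replicate 1 *Hipk2* was at 0.07. In quiescent-like cells 1 of 15 regulators was above and 5 below (median −0.09), and of 26 p53 targets 1 was above and 6 below (median 0.10), where 17% and 23.2% of all genes were so.

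Among the caspase inhibitors 2 genes had lower levels in both α-cdKO samples and an unadjusted p under 0.05. *Birc2*, which encodes the ubiquitin ligase cIAP1, had 84.7 and 73.5 CPM in control and 53.7 and 58.0 CPM in α-cdKO myogenic cells (−0.51, SE 0.14, adjusted p = 0.536 in edgeR). *Birc3*, which encodes cIAP2, had 77.5 and 70.4 against 39.3 and 55.3 CPM (−0.65, SE 0.20, adjusted p = 0.602), and *Cflar*, which encodes the caspase-8 inhibitor c-FLIP, had a log2 fold change of 0.24 (SE 0.12). Of the 5 inhibitors tested, 1 was above without overlap and 3 below, with a median of −0.09. Of 12 caspase and apoptosome genes, 1 was above and 3 below (median 0.01). *Aifm1* was among those below (−0.23, SE 0.14), and *Cycs*, cytochrome c, overlapped (0.12, SE 0.15). Of 9 death receptor genes, 2 were above and 2 below (median −0.07). *Ripk1*, a kinase of the TNF receptor complex, had 86.8 and 55.1 CPM in control and 44.2 and 54.0 CPM in α-cdKO (−0.54, SE 0.24). Control replicate 1 was the highest sample for *Ripk1*, and control replicate 2 was close to α-cdKO replicate 2. *Traf2* (0.09, SE 0.14) and *Tnfrsf1a* (−0.07, SE 0.13) followed. Among 9 other BCL-2 family genes 3 were above and 2 below (median 0.08). *Bnip3l*, a mitophagy receptor, was 50.05 and 50.04 CPM in control and 65.7 and 60.04 CPM in α-cdKO (0.32, SE 0.11, adjusted p = 0.664), and *Bok* (0.13, SE 0.27) and *Bad* (−0.12, SE 0.15) differed by less than their standard errors.

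Of 12 stress genes upstream of the BH3-only genes 2 were above and 1 below (median −0.08), led by *Atf3* (−0.60, SE 0.25), *Chac1* (−0.47, SE 0.29) and *Ddit3*, which encodes CHOP (−0.29, SE 0.21). *Chac1* had 24.4 and 33.4 CPM in control and 15.4 and 26.3 CPM in α-cdKO. *Ddit3* had 51.2 and 63.4 against 39.2 and 54.9 CPM. For both genes α-cdKO replicate 1 was the lowest sample, and α-cdKO replicate 2 lay between the controls. Of 12 damage and isolation genes, 0 were above without overlap and 3 were below, with a median of −0.15. *Atf3*, which is in both lists, had 440 and 461 CPM in control and 223 and 373 CPM in α-cdKO, and *Jun* (−0.59, SE 0.26) and *Fos* (−0.48, SE 0.31) were lower on average. Without α-cdKO replicate 1 the log2 fold change was −0.25 for *Atf3*, −0.24 for *Jun* and −0.08 for *Fos*. In quiescent-like cells 0 of the 12 damage and isolation genes were above and 5 below (median −0.18, with 3 of the 12 at an unadjusted p under 0.05), beside 17% and 23.2% of all genes. In activated-like cells 0 of the 12 damage and isolation genes were above and 1 below (median 0.07), beside 16% and 21.1% of all genes, and the one below was *Atf3* (269 and 224 against 109 and 214 CPM, log2 fold change −0.58, SE 0.26). The part of the isolation response in the *Pmaip1* level was not tested.

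The same lists were then set between activated-like and quiescent-like cells, where 36.3% of all genes of at least 10 CPM were higher in activated-like cells without overlap and 26.8% lower. Of 17 p53 targets of at least 10 CPM, 3 were higher in activated-like cells without overlap and 6 lower (median log2 ratio −0.06). *Sesn2*, a stress-induced regulator of mTORC1 (1.81 ± 0.33), and *Aen*, a nuclease (1.72 ± 0.22), were higher, and *Gdf15*, a stress cytokine, was lower (−2.23 ± 0.28). Of 8 p53 regulators 5 were higher and 2 lower, led by the deubiquitinase gene *Usp7* (0.86 ± 0.12), *Crebbp* (0.77 ± 0.17) and *Hipk2* (0.67 ± 0.17). *Cycs* (1.16 ± 0.08) and *Diablo* (0.42 ± 0.01), whose products leave mitochondria during apoptosis, were higher and *Aifm1* was lower (−0.43 ± 0.06), so that 2 of 4 genes of the apoptosome list were higher and 1 lower. Of 4 death receptor genes 2 were higher, *Tnfrsf1a* (1.55 ± 0.18) and *Traf2* (0.68 ± 0.06), and *Cyld* was lower (−0.67 ± 0.11). Among other BCL-2 family genes *Bad* (−0.83 ± 0.11) and *Bnip3l* (−0.45 ± 0.05) were lower and *Bcl2l13* was higher (0.33 ± 0.19), out of 4. None of 5 caspase inhibitors separated the states, with *Birc3* at 0.45 ± 0.13, *Birc2* at 0.35 ± 0.18 and *Cflar* at 0.09 ± 0.12. Of 8 stress genes 3 were higher and 3 lower, among them *Xbp1* (1.78 ± 0.15) and *Chac1* (1.42 ± 0.27) above and *Atf3* (−2.23 ± 0.16) below. Of 12 isolation genes 9 were lower and 1 higher, with *Fos* at −4.01 ± 0.62, *Hspa1a* at −3.69 ± 0.32 and *Jun* at −3.57 ± 0.51.

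Single cells held few of these transcripts. After each cell was thinned to 2000 UMIs, which left out 348 of the myogenic cells, 6.64% (95% Clopper-Pearson interval 6.34 to 6.94) of 26776 myogenic cells had a UMI of any BH3-only member. Control samples had shares of 6.33% and 6.94%, and α-cdKO samples of 6.49% and 6.84%. It was 2.04% (1.23 to 3.17) in mature-muscle-like cells, which were taken as a reference, since no cell type here is known to lack these genes. That reference was uneven, with 0 of 86 cells (3 counts would be 3.49%, and the Clopper-Pearson upper limit is 4.199%) and 1.27% of 550 in control and 2% of 200 and 8.51% of 94 in α-cdKO. It was 3.16% without control replicate 2 and 1.32% without α-cdKO replicate 2. In α-cdKO replicate 2 the myogenic share was below that of the reference. Myogenic cells had a median of 7435.5 UMIs before thinning and mature-muscle-like cells one of 3071. UMIs of 2 or more BH3-only members were found in 41 myogenic cells (0.153%). A BH3-only UMI without one of a guardian was found in 2.23% and 3.40% of control and 2.83% and 2.62% of α-cdKO cells, which overlapped. *Mcl1* was detected in 55.1% of thinned myogenic cells (86.7% unthinned), *Trp53* in 16.1% (46.4%), *Bax* in 8.79% (27.6%) and *Pmaip1* in 1.94% (6.08%). *Pmaip1* was detected in 2.87% (2.38 to 3.44) and 3.49% (2.86 to 4.22) of thinned activated-like control cells, and in 1.44% (1.16 to 1.77) and 2.27% (1.90 to 2.70) of those of α-cdKO. These shares are in the order of the CPM values.

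Cells that have opened their mitochondria or lost cytoplasm can have a high share of mitochondrial UMIs, and such barcodes are removed by the 15% filter. Among barcodes of at least 1000 UMIs and 400 genes the share at or above 15% was 2.40% (2.02 to 2.84) and 3.86% (3.37 to 4.40) in control and 3.36% (3.02 to 3.73) and 1.66% (1.40 to 1.96) in α-cdKO. The genotypes overlapped (3.13% ± 1.03 and 2.51% ± 1.20, SD, n = 2; two-sided exact permutation test, p = 0.667), and 2 samples against 2 cannot give a p under 0.333. This test could therefore not have shown a difference.

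The 135, 215, 340 and 138 barcodes set aside held a different mix of these transcripts, given here in CPM of non-mitochondrial UMIs. *Bcl2* was 114 and 111 CPM in control and 76.9 and 121 CPM in α-cdKO, against 51.5, 37.1, 33.8 and 34.8 CPM in the kept myogenic cells. It was higher in 4 of 4 samples (log2 ratio 1.32 ± 0.29). *Bcl2l11* was 35.4, 30.2, 37.7 and 33.3 CPM against 11.4, 11.1, 17.6 and 14.04 CPM (1.09 ± 0.17). *Mcl1* was lower in 4 of 4 samples (338, 297, 323 and 229 CPM against 569, 491, 469 and 506 CPM), as was *Pmaip1* (−1.36 ± 0.30), for which at most 1 UMI was found in any sample. Of 6081 genes of at least 10 CPM, 45.7% were higher in these barcodes in 4 of 4 samples and 16.8% lower, and of the 7 members of that level 2 were higher and 2 lower. *Bak1* (0.97 ± 0.36) and *Bcl2l1* (0.76 ± 0.45) were higher on 2 to 8 and 2 to 9 UMIs per sample, and *Bax* (0.19 ± 0.28), *Bbc3* (−0.25 ± 0.69), *Bid* (−0.18 ± 0.32) and *Trp53* (0.18 ± 0.21) differed in sign between samples. The set-aside barcodes were shallow, with a median of 1756 to 1976 UMIs. The nuclear RNA *Malat1* was 79789 to 96901 CPM in them and 24601 to 33232 CPM in kept cells, *Pax7* was 213 to 515 CPM against 54.1 to 126, and the muscle gene *Ckm* reached 1410 CPM in control replicate 2. The part of depth, nuclear RNA or other cells in these levels was not tested. Within the kept cells *Bcl2* was 40.7 ± 7.98 CPM at 6 to 10% mitochondrial UMIs and 55.6 ± 10.9 CPM at 10 to 15%, and *Mcl1* was 496 ± 53.9 and 348 ± 60.1 CPM (n = 4).

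**Figure D5:**
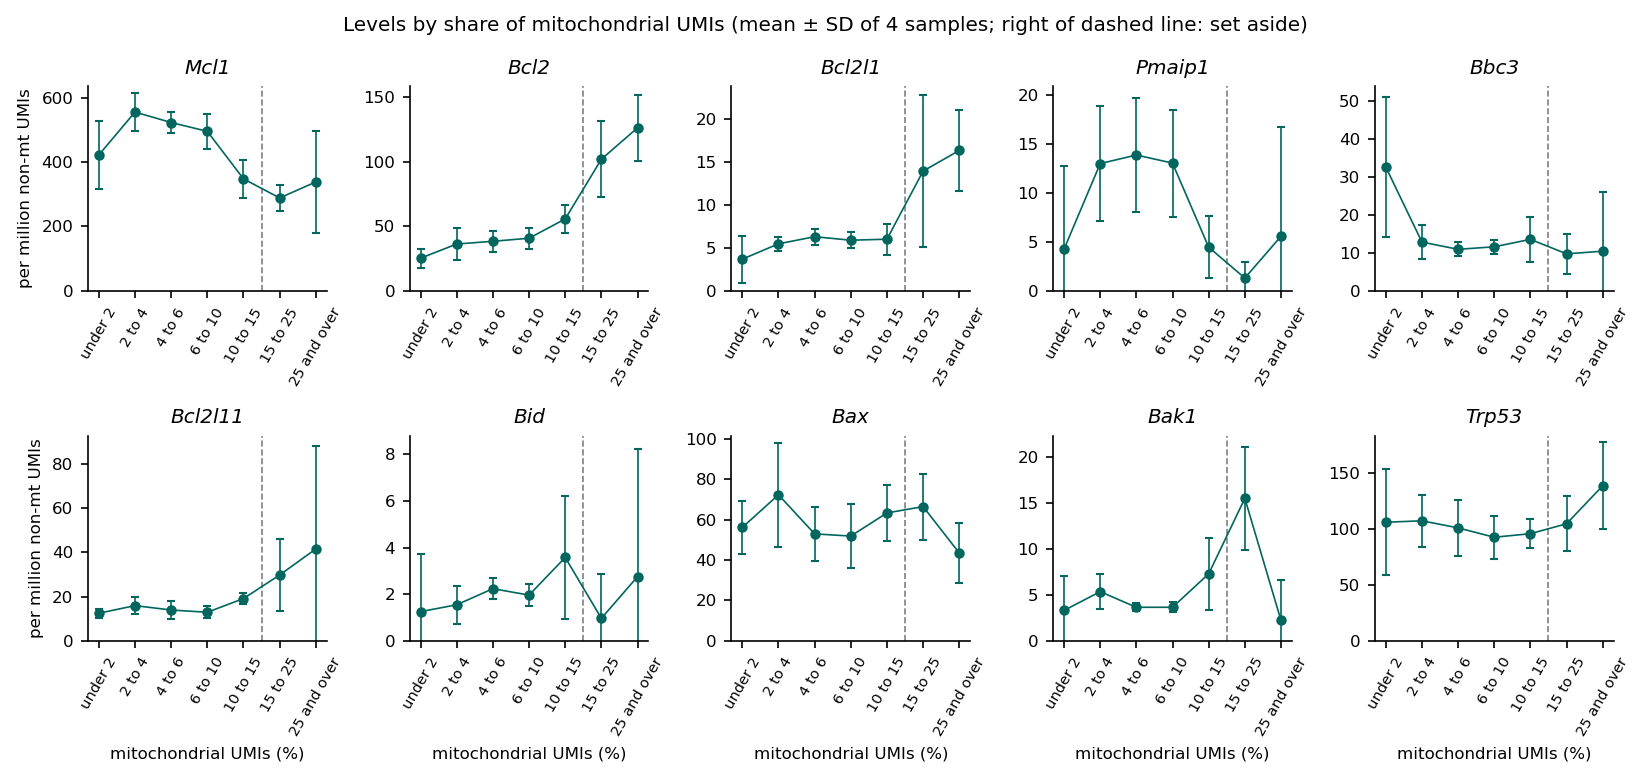
Level of each gene in CPM of non-mitochondrial UMIs (y axis, linear, from 0) by share of mitochondrial UMIs of the barcode (x axis, percent), as mean ± SD of 4 samples. The bins right of the dashed line were set aside, and the lowest bin holds 25 to 51 cells per sample. Bcl2 is highest and Mcl1 lower to the right of the line.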

How the data were processed

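Gene expression was measured by droplet single cell RNA-sequencing (10x Genomics 3′ v3, 30000 cells loaded) in 2 control and 2 α-cdKO samples, each a pool of 2 mice. The deposited values are raw UMI counts per gene and cell, which the authors made with Cell Ranger 7.1.0 and a GRCm38 (mm10) reference. Whether intronic reads were counted is not given in the sources used here. The submitters' processing notes also name Seurat 4.0.3.

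From these counts, cells with at least 1000 UMIs, 400 genes and under 15% mitochondrial UMIs were kept. They were clustered with Seurat 5.3.0 (2000 variable genes without the members and listed genes, 30 components after Harmony, Louvain resolution 0.2) and named from marker genes, so states can differ from those of the study. The leading genes of the quiescent-like cluster were *Fos*, *Hspa1a* and *Jun*, and no marker was among the 10 leading genes of the activated-like cluster. The doublet caller's automatic threshold marked 0 to 5 cells per sample, so it had not worked. No doublets were removed, and an alternative left out the 229 to 766 highest scores per sample.

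UMIs were summed per sample and state and tested with edgeR 4.0.16 (quasi-likelihood test, filterByExpr, TMM, Benjamini-Hochberg adjustment over all genes tested) in R 4.3.3, with DESeq2 1.42.0 as an alternative. The scripts were tested on simulated data, where the fit missed part of the smaller changes and made some false calls. Fits without a filter, with the replicate number as a block, without each replicate, in Y-linked cells, and under other clusterings were also made. The exact permutation test of 2 samples against 2 cannot go below p = 0.333. Nothing says that samples are independent beyond separate pools of littermates, so p-values measure the spread between these pools. Intervals cover counting error only. Coordinates are those of GRCm38.

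The 10 members, the 8 further lists and the tests were chosen with earlier results of these data known. Besides the members, the 3 genes of each list with the largest absolute difference at a mean of at least 10 CPM were named, for genotype and for state, and the 3 genes with the highest Pearson r to a member. Some genes that this rule names are not reported here.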

Additional observations from a re-analysis of the deposited data

Results flagged for a closer look

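In α-cdKO replicate 1, 52.6% of myogenic cells had an *Xist* UMI and no Y-linked UMI, against at most 0.0189% in each of the other 3 samples. *Xist* and the Y-linked genes are neither members nor listed genes, and they were used here to split or restrict cells. The share of *Xist*-bearing cells lay above its level in the control samples. *Bax*, *Bbc3*, *Bcl2l11* and *Trp53* were higher in these cells than in the other cells of the same library, whereas *Pmaip1* was 6.37 CPM in them and 8.57 CPM in the others. Both sets are α-cdKO cells, and sex and animal cannot be told apart between them. In Y-linked cells alone the log2 fold change of α-cdKO over control was −0.92 for *Pmaip1*, 0.15 for *Bbc3* and −0.15 for *Bax*.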

How the results depend on the processing

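With 2 pools per genotype, counts of genes called moved with most settings. In all myogenic cells 26 genes were called, and 118 with DESeq2, 13 without a filter on low counts and 50 without cycling-like and differentiated-like cells. In quiescent-like cells 22 were called, 45 with DESeq2, 327 without a filter and 7 in Y-linked cells. In activated-like cells 41 were called, 100 with DESeq2, 347 without a filter, 21 in Y-linked cells and 20 at a Louvain resolution of 0.4. The cause was not tested. Leaving out 1 replicate gave 0 to 52, 53 to 132 and 20 to 143 genes in these 3 fits, 7 to 44 in differentiated-like cells (1 with all samples) and 0 to 89 in cycling-like cells (5 with all samples). The lone sample left in an arm is then assumed to vary like the other group.

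With the replicate number as a block, 13 genes were called in all myogenic, 52 in quiescent-like, 23 in differentiated-like and 15 in cycling-like cells. Samples of the same number did not deviate together (r = −0.18 across 5914 genes), so the number is not taken as a pairing. The crossed pairing, chosen after seeing the data, called 170, 71 and 119 genes in all myogenic, quiescent-like and activated-like cells.

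*Pmaip1* kept its direction in each of 15 settings in each of the 3 fits, and none of the other 9 members was called in any of 405 values (lowest adjusted p = 0.205 in edgeR or DESeq2). The settings reuse the same libraries, and both controls lay above both α-cdKO samples for *Pmaip1* in each of the 3 fits. A fit without 1 replicate could therefore hardly turn its sign, and the kept direction is not independent support. *Bax* turned to −0.15, −0.31 and −0.0866 in Y-linked cells in all myogenic, quiescent-like and activated-like cells, and to −0.0049 in activated-like cells clustered without Harmony. In Y-linked cells *Tnfrsf1a* turned to 0.0319, *Bok* to −0.20, and in quiescent-like cells *Bcl2* to 0.0706 and *Bcl2l1* to −0.0316. Without cycling-like and differentiated-like cells *Tnfrsf1a* was 0.00021 and *Bok* −0.0678. When 1 replicate was left out, log2 fold changes in all myogenic cells spanned 0 for *Bax* (−0.14 to 0.56), *Bcl2l1* (−0.25 to 0.0816), *Bid* (−0.14 to 0.43), *Cycs* (−0.0484 to 0.31), *Traf2* (−0.0294 to 0.21), *Tnfrsf1a* (−0.17 to 0.0162), *Bok* (−0.20 to 0.47) and *Phlda3* (−0.0366 to 1.17). The same held in quiescent-like cells for *Bax* (−0.0853 to 0.37), *Bcl2* (−0.15 to 0.0259) and *Bcl2l1* (−0.23 to 0.37), and in activated-like cells for *Bax* (−0.20 to 0.36) and *Bid* (−0.0479 to 0.40).

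Among members of at least 10 CPM, the number that separated activated-like from quiescent-like cells was 3 and ranged from 3 to 5 when 1 replicate was left out. With all samples, 36.3% of all genes of that level were higher in activated-like cells without overlap and 26.8% lower. A lack of overlap is more common for any gene with fewer samples, and the share without 1 replicate is not given here. The α-cdKO minus control difference in barcodes of at least 15% mitochondrial UMIs ranged from −1.47 to 0.23 percentage points. At a limit of 25% the count of members of at least 10 CPM higher or lower in every sample went from 4 to 2. These were *Bcl2*, which was higher, and *Mcl1*, which was lower. The share of all genes at that limit is not given here. Thinned to 4000 UMIs, 11.9% of myogenic cells had a BH3-only UMI. *Bak1*, *Bcl2l1* and *Bid* had 451 to 1311 UMIs over all myogenic cells, against 109394 for *Mcl1*.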
